A study of Mus musculus with 4 samples.

Results

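Granzymes and perforin are the proteins with which cytotoxic lymphocytes kill. Perforin, encoded by Prf1, forms pores in the membrane of a target cell, and granzymes are serine proteases that enter the target with its help and cleave proteins inside it. Both are stored in cytotoxic granules, bound to a proteoglycan and kept at low pH until the granule is released. Granzymes A and B are found in both humans and mice, whereas the genes Gzmc, Gzmd, Gzme, Gzmf and Gzmg belong to an expanded cluster next to Gzmb in the mouse genome. The 10 genes described here are Gzma, Gzmb, Gzmc, Gzmd, Gzme, Gzmf, Gzmg, Gzmk, Gzmm and Prf1. They were chosen by name as a family, with earlier results of these data known, and no measured value enters the choice. All 10 were found among the 35275 genes of the deposited table, and all 10 had a mean of at least 1 RPKM (reads scaled to transcript length in kilobases and to library size), the filter that left 11625 genes for testing.

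The study sequenced RNA from mouse double-negative regulatory T cells, a T cell type without CD4 or CD8 that is known for suppressing other immune cells. The libraries OX40-knockout 1 and 2 came from cells of OX40-knockout mice, and the libraries wild-type 1 and 2 from wild-type mice, all of strain C57BL/6. OX40, encoded by Tnfrsf4, is a costimulatory receptor of activated T cells. In both genotypes naive CD4 T cells had been converted, and cells with CD3 and the αβ T cell receptor were collected by sorting, leaving out cells with CD4, CD8 or NK markers, per the labels. The labels give no age, do not say which part of Tnfrsf4 was removed, and leave unsaid if replicates are different animals or cultures. A p-value therefore reflects library-to-library spread alone, and that spread may be technical.

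Library totals were 22220888 and 22571186 reads in OX40-knockout 1 and 2, against 23215528 and 24395743 reads in wild-type 1 and 2. Tnfrsf4 was read in every library, at 12.1 and 9.38 RPKM in OX40-knockout 1 and 2 and at 18.2 and 12.3 RPKM in wild-type 1 and 2, and did not pass the test (log2 change -0.46, SE 0.23, limma adjusted p = 0.975). OX40-knockout 1 stood apart from the other libraries. The knockout libraries were at least 2-fold apart in 578 of the 11625 tested genes (4.97%), and the wild-type libraries in 132 (1.14%). The deviation of OX40-knockout 1 from the library mean on the log2 scale had a median of -0.18 in tested genes of 18.1% to 45.1% GC and 0.21 in those of 55.8% to 85.7% GC. All 10 T cell markers were read, with Cd3e, a chain of the T cell receptor complex, between 248 and 332 RPKM.

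The regions just upstream of the 5 clustered genes are shown first, because these genes varied together and their promoters are close copies of one another. Each window holds 86 bases upstream of the RefSeq start of the gene, from the RefSeq promoter set of build GRCm38.p6, on the minus strand. The windows were placed by a run of letters that the 5 genes share and that overlaps TGTGGT. They begin between 113 (Gzmc) and 138 (Gzmf) bases before the start and end between 28 and 53 bases before it. The place of the CRE letters was taken right after another shared run. Capitals mark TGTGGT, the letters bound by RUNX factors, and the 8 bases at the place where 3 of the genes hold TGACGTCA, the cyclic AMP response element (CRE) letters.

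Gzmc (chr14:56234685-56234770): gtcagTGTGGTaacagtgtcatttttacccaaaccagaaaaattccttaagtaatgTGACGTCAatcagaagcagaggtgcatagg
Gzmd (chr14:56132625-56132710): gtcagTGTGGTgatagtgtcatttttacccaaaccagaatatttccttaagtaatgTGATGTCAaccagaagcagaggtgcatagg
Gzme (chr14:56120658-56120743): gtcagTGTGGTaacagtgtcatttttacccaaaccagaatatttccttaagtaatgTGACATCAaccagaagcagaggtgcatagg
Gzmf (chr14:56211460-56211545): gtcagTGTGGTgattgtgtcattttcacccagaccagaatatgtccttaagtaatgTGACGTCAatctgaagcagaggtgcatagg
Gzmg (chr14:56159627-56159712): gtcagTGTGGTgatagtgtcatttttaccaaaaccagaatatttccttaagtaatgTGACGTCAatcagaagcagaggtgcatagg

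All 5 windows carried the same base at 73 of 86 positions, and pairs of windows were between 89.5% identical (Gzmf with Gzmc or Gzme) and 96.5% identical (Gzmd and Gzmg). Because the windows were placed on shared letters, the common place of TGTGGT and part of this identity follow from the placement. TGACGTCA stood in Gzmc, Gzmf and Gzmg, TGATGTCA in Gzmd and TGACATCA in Gzme. The promoter of Gzmb, the end gene of the same cluster, is shown for contrast with those of Prf1 on chromosome 10 and Gzma on chromosome 13, with capitals at every match to the motifs named next.

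Gzmb (chr14:56262335-56262439, minus strand): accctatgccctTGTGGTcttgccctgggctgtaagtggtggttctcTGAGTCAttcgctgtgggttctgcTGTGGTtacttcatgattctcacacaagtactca
Prf1 (chr10:61297686-61297785, plus strand): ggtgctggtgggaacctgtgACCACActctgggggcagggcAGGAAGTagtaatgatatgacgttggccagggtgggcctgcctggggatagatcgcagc
Gzma (chr13:113100982-113101081, minus strand): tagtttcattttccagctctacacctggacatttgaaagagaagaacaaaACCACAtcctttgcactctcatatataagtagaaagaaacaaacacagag

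5 motifs were searched on both strands in the 250 bases before each RefSeq start, and all 10 genes had such a region. TGTGGT (RUNX) was found in 9 of the 10 genes, all but Gzmk, and in 14.0% of 32851 promoters. AGGAAGT (ETS factors) was found in 6 genes, Gzmc to Gzmg and Prf1, and in 7.69% of promoters. TGACGTCA was found in 3 genes and in 1.55% of promoters. TGANTCA (AP-1) was found in Gzmb alone and in 6.75% of promoters, and GGTGTGA (T-box factors) in Gzmk and Gzmm and in 3.33%. Matches of different motifs did not overlap in any of the 10 genes. The clustered genes are copies, so their matches are not separate observations, and a match describes letters and not binding.

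Near-identical copies matter for the values as well. Coding sequences of Gzmd and Gzme were 93.3% identical, those of Gzme and Gzmg 89.5%, and those of Gzmf and Gzmg 86.8%. Gzmb and Gzmc were 76.2% identical, and Gzma and Gzmk 55.5%. Of all 36-base windows of the annotated transcript, 35.0% in Gzme, 33.0% in Gzmd, 29.8% in Gzmf and 29.3% in Gzmg also occurred in a transcript of another gene, against 12.0% in Gzmc, 0.999% in Gzmb and 0% in Gzma, Gzmk and Gzmm. With 100-base windows the share was 6.71% in Gzmf and at most 0.247% in the other genes. The sources used here give neither the read length nor how a read matching several genes was counted, so the division of reads among Gzmd, Gzme, Gzmf and Gzmg is uncertain. Prf1 shared 0.0517% of its windows with another gene.

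Gzmb and Gzma were among the most abundant transcripts of these cells in either genotype. Granzyme B cleaves after aspartate and starts the caspase cascade, and granzyme A is a trypsin-like protease. Gzmb stood at 7506 and 8236 RPKM in OX40-knockout 1 and 2, against 7206 and 6434 RPKM in wild-type 1 and 2. It ranked between 3 and 4 among all genes in every library. Gzma stood at 6488 and 9530.1 RPKM in OX40-knockout 1 and 2, against 6473 and 7323 RPKM in wild-type 1 and 2, and ranked between 3 and 5. The highest gene in all 4 libraries was Eef1a1, the elongation factor of translation, at 10311 to 12990 RPKM. For both granzymes the differences between libraries were small beside their level, with the highest library 1.28 times the lowest for Gzmb and 1.47 times for Gzma.

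Prf1 stood at 355 and 1182 RPKM in OX40-knockout 1 and 2, against 574 and 856 RPKM in wild-type 1 and 2. The knockout libraries thus lay on either side of both wild-type libraries. Prf1 ranked 261 and 91 in the knockout libraries and 171 and 119 in the wild-type libraries. Per length, perforin transcripts were 0.0473 and 0.144 of those of Gzmb in the knockout libraries, against 0.0797 and 0.133 in the wild-type libraries.

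**Figure D1:**
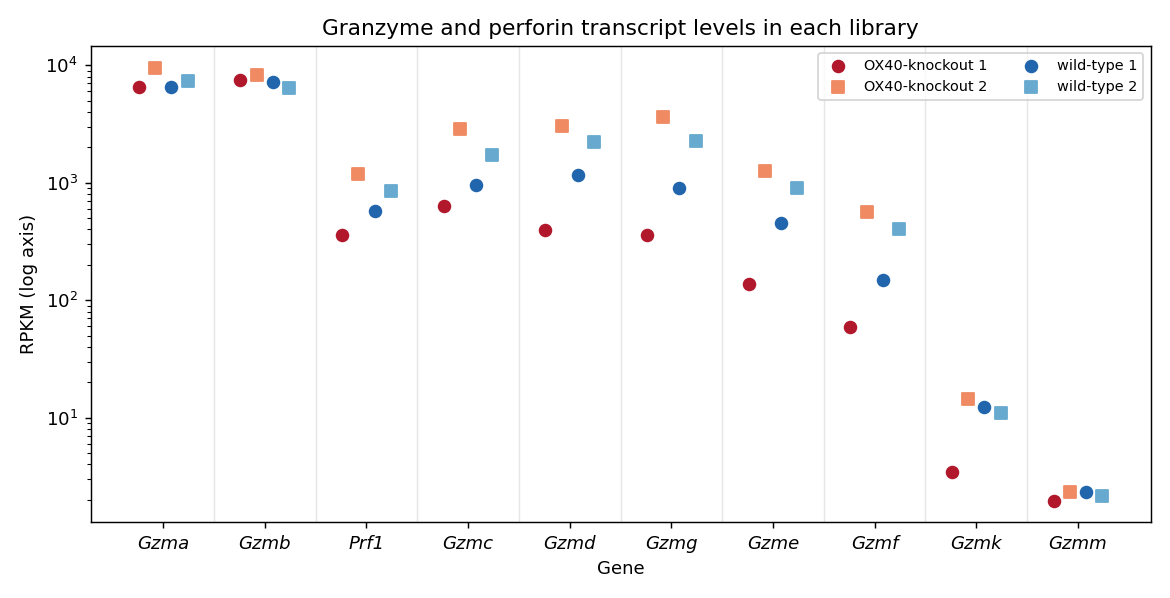
RPKM of each of the 10 genes on a log axis, 1 point per library, with OX40-knockout libraries in red and orange and wild-type libraries in blue. Gzma and Gzmb lie together near the top, between 6434 and 9530.1 RPKM, Gzmk and Gzmm lie at 14.3 RPKM or less, and for Prf1 and the clustered genes OX40-knockout 1 is the lowest point and OX40-knockout 2 the highest.

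The clustered granzymes lay between these extremes and varied far more. Gzmc stood at 638 and 2837 RPKM in OX40-knockout 1 and 2, against 950.2 and 1726 RPKM in wild-type 1 and 2. Gzmd stood at 395 and 3035 RPKM in the knockout libraries, against 1151 and 2237 RPKM in the wild-type libraries. Gzmg stood at 356 and 3591 RPKM in the knockout libraries, against 903 and 2266 RPKM in the wild-type libraries. In all 3, as in Prf1, OX40-knockout 1 was lowest, then wild-type 1, then wild-type 2, and OX40-knockout 2 was highest, so that the wild-type values lay inside the span of the knockout values. Gzme stood at 138 and 1265 RPKM in the knockout libraries and at 450.5 RPKM and 897 RPKM in wild type. Gzmf, the lowest of the cluster members described, stood at 59.2 and 566 RPKM in the knockout libraries and at 149.7 RPKM and 406 RPKM in wild type. Both kept the same order of libraries. These differences exceed counting error by far. For Gzmf, which had the fewest reads of the 5, the exact 95% Poisson intervals were 55.9 to 62.7 RPKM (1192 reads) in OX40-knockout 1 and 556 to 576 RPKM (11574 reads) in OX40-knockout 2, against 144 to 155 and 398 to 415 RPKM in wild-type 1 and 2. Reads without molecular identifiers are not independent molecules, so the intervals cover counting error only.

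The ranks of the clustered genes differed accordingly. Gzmg ranked 259 and 11 in OX40-knockout 1 and 2, against 111 and 22 in wild-type 1 and 2. Gzmf, at the lower end, ranked 2092 and 174 in the knockout libraries and 705 and 219 in the wild-type libraries. These are bulk libraries, in which fewer cells with a transcript and less of it per cell cannot be told apart.

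Gzmk and Gzmm were low. Granzyme K is a trypsin-like protease whose gene lies next to Gzma on chromosome 13, and granzyme M is a protease known from NK cells. Gzmk stood at 3.44 and 14.3 RPKM in OX40-knockout 1 and 2, against 12.3 and 10.9 RPKM in wild-type 1 and 2. OX40-knockout 1 stood furthest apart here, with 82 reads and an interval of 2.73 to 4.26 RPKM. The interval of wild-type 1 (10.9 to 13.7 RPKM) overlapped those of OX40-knockout 2 (12.8 to 15.9 RPKM) and wild-type 2 (9.65 to 12.2 RPKM). The intervals of OX40-knockout 2 and wild-type 2 did not overlap each other. Gzmm stood at 1.97 and 2.31 RPKM in the knockout libraries and at 2.32 RPKM and 2.17 RPKM in wild type, from 47 to 58 reads. Its intervals overlapped in all 4 libraries, so no difference in Gzmm was detectable at this depth.

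By level, then, Gzma and Gzmb came first and were not in the same order in every library. Their ratio, Gzma to Gzmb, was 0.864 and 1.16 in OX40-knockout 1 and 2, against 0.898 and 1.14 in wild-type 1 and 2. Gzmb was higher than Gzma in both libraries numbered 1 and lower in both numbered 2. Gzmc, Gzmd, Gzmg, Gzme and Prf1 formed a middle group whose order changed from library to library. Gzmf followed, and Gzmk and Gzmm came last in every library. Summed over the 10 genes, RPKM came to 15939 and 30258 in OX40-knockout 1 and 2, against 17872 and 22158 in wild-type 1 and 2. In reads, the 10 genes took 1.86% and 3.30% of the knockout library totals, against 2.05% and 2.44% of the wild-type totals.

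The make-up of this sum differed between libraries. Gzmc to Gzmg held 9.94% and 37.3% of it in OX40-knockout 1 and 2, against 20.2% and 34.0% in wild-type 1 and 2. Gzmb held 47.1% and 27.2% in the knockout libraries, against 40.3% and 29.0% in the wild-type libraries. Prf1 held 2.23% and 3.91% in the knockout libraries and 3.21% and 3.86% in the wild-type libraries. The summed RPKM of the clustered genes was 1585 and 11293 in the knockout libraries and 3604 and 7532 in the wild-type libraries.

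**Figure D2:**
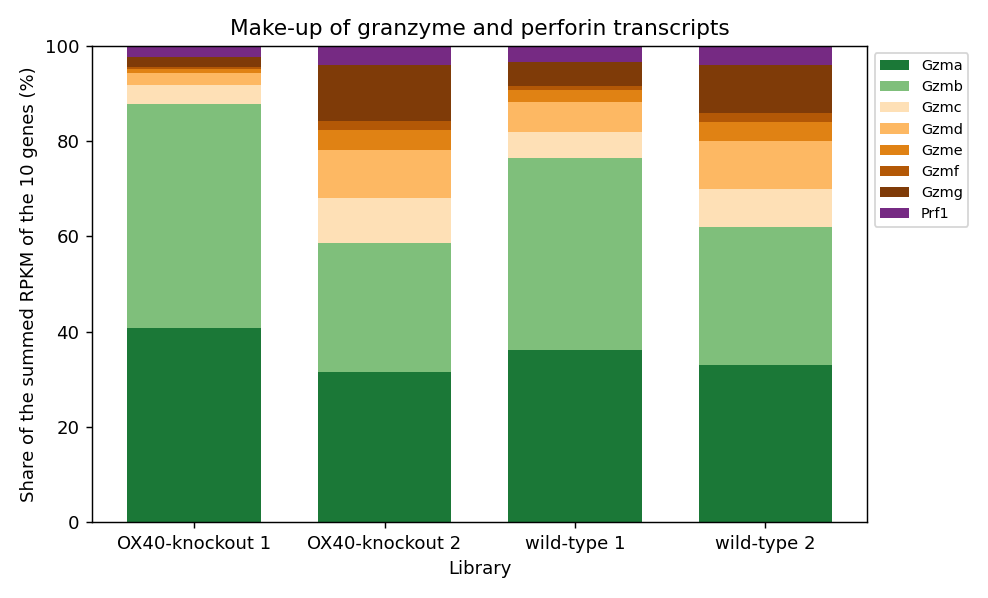
Share of the summed RPKM of the 10 genes, in percent, taken by each gene in each library, with Gzmk and Gzmm too small to see. The clustered genes Gzmc to Gzmg hold 9.94% in OX40-knockout 1 and 37.3% in OX40-knockout 2, against 20.2% and 34.0% in wild-type 1 and 2.

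Within the cluster some genes kept close proportions while their levels differed widely. Ratios within the cluster and to Prf1 were added to those first planned, and the closest are given first. Gzmf to Gzmg was 0.166 and 0.158 in OX40-knockout 1 and 2, against 0.166 and 0.179 in wild-type 1 and 2, a ratio that varied 1.14-fold over libraries in which Gzmg varied 10.1-fold. Gzmd to Gzme was 2.87 and 2.40 in the knockout libraries and 2.55 and 2.49 in the wild-type libraries. Other pairs were looser, with Gzmd to Gzmf varying 1.43-fold and Gzmd to Gzmg 1.51-fold. Gzmc kept less close to the others, with Gzmc to Gzmd at 1.62 and 0.935 in the knockout libraries and 0.826 and 0.772 in the wild-type libraries. It stayed closer to Prf1, on another chromosome, at 1.80 and 2.40 times the level of Prf1 in the knockout libraries and 1.66 and 2.02 times in the wild-type libraries. Gzmd, Gzme, Gzmf and Gzmg share windows of sequence, and the part of read assignment in these proportions was not tested.

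Against Gzmb, the proportions of the cluster were not fixed. Gzmg to Gzmb was 0.0474 and 0.436 in OX40-knockout 1 and 2, against 0.125 and 0.352 in wild-type 1 and 2. Gzmd to Gzmb was 0.0526 and 0.368 in the knockout libraries and 0.160 and 0.348 in the wild-type libraries. On the log2 scale of RPKM + 1, the ratio to Gzmb differed between knockout and wild-type means by -0.14 for Gzmc, -0.76 for Gzmd, -0.81 for Gzme, -0.63 for Gzmf, -0.55 for Gzmg and -0.32 for Prf1, with spreads within groups (pooled SD) between 0.88 and 1.76. Gzma to Gzmb differed by -0.02, with a pooled SD of 0.27. Each of these differences was smaller than the spread between replicates, and without OX40-knockout 1 each turned positive, as with Gzmg to Gzmb at 1.05 and Gzma to Gzmb at 0.19. Gzmk to Gzma differed by -0.80, with a pooled SD of 0.64. As a ratio of plain RPKM it was 5.30e-04 and 0.00150 in OX40-knockout 1 and 2, against 0.00190 and 0.00149 in wild-type 1 and 2. OX40-knockout 2 and wild-type 2 were nearly equal, so these values do not settle if the groups overlap. With 2 libraries a group no exact permutation test can reach a p of 0.05, so the ratios are given as values.

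**Figure D3:**
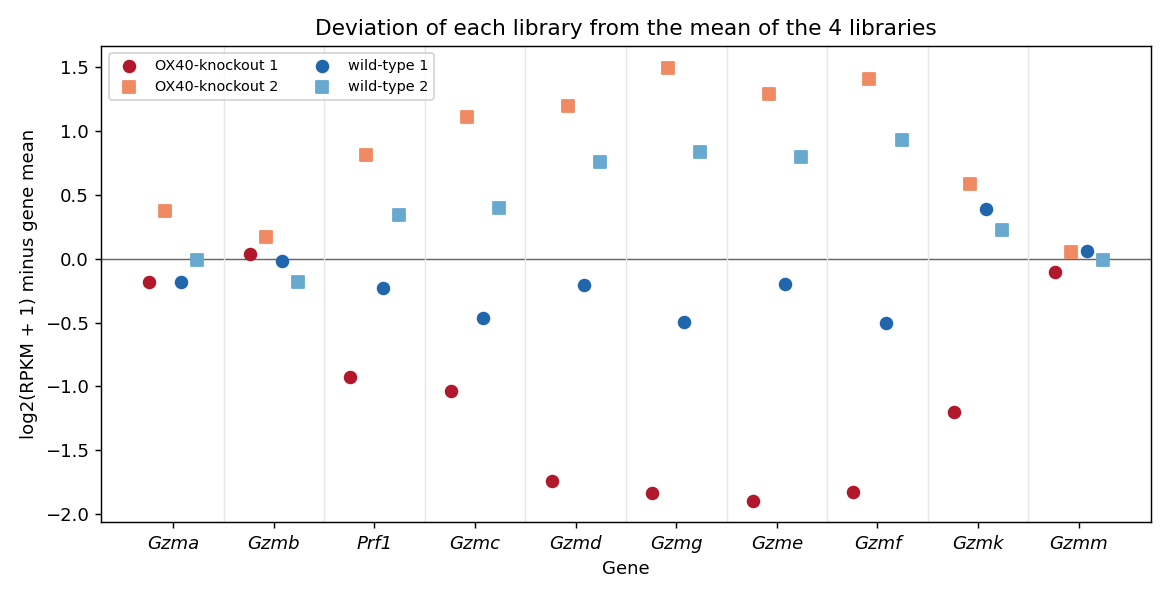
log2(RPKM + 1) of each library minus the mean of the 4 libraries, for each gene, 1 point per library. In Prf1 and the 5 clustered genes the points run from OX40-knockout 1 through wild-type 1 and wild-type 2 to OX40-knockout 2, in Gzmk only OX40-knockout 1 lies far from the rest, and in Gzma, Gzmb and Gzmm all libraries lie close to 0.

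Knockout was set against wild type to ask if loss of OX40 changed these transcripts in double-negative T cells. Gzmb averaged 7871 ± 516 RPKM in knockout and 6820.3 ± 546 RPKM in wild-type libraries (SD, n = 2 each), and Gzma averaged 8009 ± 2151 RPKM in knockout and 6898 ± 601 RPKM in wild-type libraries. The clustered genes had similar group means and wide spreads, as for Gzmd with 1715 ± 1867 RPKM in knockout and 1694 ± 768 RPKM in wild-type libraries. Summed over Gzmc to Gzmg the means were 6439 ± 6865 RPKM in knockout and 5568 ± 2777 RPKM in wild-type libraries. Prf1 averaged 769 ± 585 RPKM in knockout and 715 ± 199.6 RPKM in wild-type libraries.

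The test was limma on log2(RPKM + 1), run across all 11625 genes, with Benjamini-Hochberg adjustment over all of them. Of the 10 genes, 0 passed an adjusted p of 0.05, where 0% of all tested genes did. At an unadjusted p under 0.05 the count was 0 of 10, and 1.39% of all tested genes. The log2 change was 0.21 (SE 0.17) for Gzmb and 0.19 (SE 0.24) for Gzma. It was 0.07 (SE 0.76) for Gzmc, -0.55 (SE 1.01) for Gzmd, -0.60 (SE 1.09) for Gzme, -0.42 (SE 1.15) for Gzmf and -0.34 (SE 1.17) for Gzmg. For Prf1 it was -0.11 (SE 0.60), for Gzmk -0.61 (SE 0.59) and for Gzmm -0.05 (SE 0.18). The limma adjusted p lay between 0.975 and 0.991. On the log2(RPKM + 1) scale the mean was lower in knockout for 7 of the 10, as it was for 56.6% of tested genes. For Gzmd, Gzme, Gzmf, Gzmg and Prf1 among these, the mean RPKM itself was higher in knockout. The median log2 change of the 10 was -0.23 against -0.03 over all tested genes. Groups did not overlap for 1 gene, Gzmb, higher in both knockout libraries. Among tested genes 26.4% had groups that did not overlap, and 8.66% did so with the knockout higher. The standard errors of Gzmd to Gzmg exceeded 1 on the log2 scale, against a median of 0.16 over tested genes, that is, more than the log2 size of a 2-fold change.

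For all of the genes but Gzmb, the direction rested on which knockout library was read. Without OX40-knockout 1, all 10 genes were higher in the knockout, with log2 changes of 1.33 for Gzmg, 1.19 for Gzmf, 1.15 for Gzmc, 0.75 for Prf1, 0.47 for Gzma and 0.27 for Gzmb. 4 of the 10, namely Gzma, Gzmb, Gzmc and Prf1, had an unadjusted p under 0.05 in that fit, as did 4.51% of all tested genes, and the lowest adjusted p among the 10 was 0.970. Without OX40-knockout 2, 9 of the 10 were lower, with log2 changes of -2.20 for Gzme, -2.02 for Gzmd, -2.0 for Gzmg, -1.50 for Gzmk and -0.98 for Prf1, and Gzmb alone was higher, at 0.14. 6 of the 10 then had an unadjusted p under 0.05, as did 33.0% of all tested genes, and the lowest adjusted p among the 10 was 0.0526, for Gzmk. In both fits the lone knockout library was assumed to vary like the wild-type libraries.

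**Figure D4:**
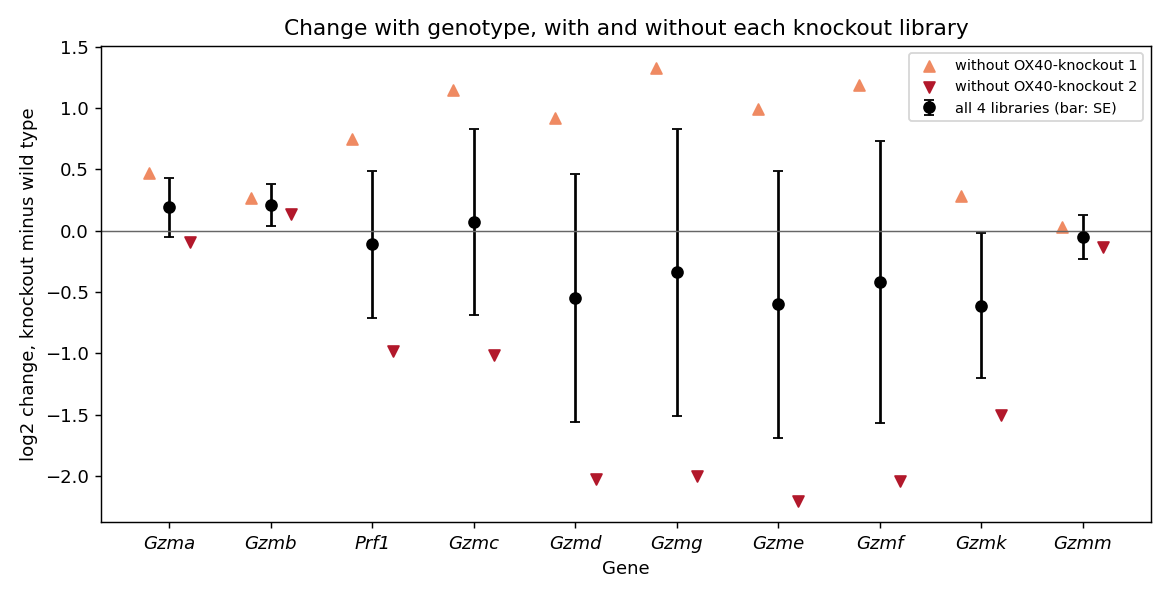
log2 change of each gene on the log2(RPKM + 1) scale, knockout minus wild type, with all 4 libraries (black points, bars of 1 SE) and with either knockout library left out (triangles). For Gzmg the change is -0.34 with all libraries, 1.33 without OX40-knockout 1 and -2.0 without OX40-knockout 2.

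The spread between libraries was wide. The highest and lowest libraries were at least 2-fold apart for 7 of the 10, namely Gzmc, Gzmd, Gzme, Gzmf, Gzmg, Gzmk and Prf1, where 6.85% of all tested genes were. Leaving out OX40-knockout 1 left 6 of the 10, all of these but Gzmk, where 2.12% of tested genes were so far apart. Leaving out OX40-knockout 2 left all 7, beside 5.26% of tested genes. The knockout libraries were at least 2-fold apart for 7 of the 10, and the wild-type libraries for 2, Gzmf and Gzmg. By range on the log2 scale Gzmg, Gzmf, Gzme and Gzmd stood at places 14, 18, 20 and 27 of the 11625 tested genes, Gzmc at 91, Gzmk at 161 and Prf1 at 182. Among 1156 genes averaging 100 RPKM or more, 45 were 2-fold apart, of which 6 were Gzmc to Gzmg and Prf1. Among 189 genes averaging 500 RPKM or more, 8 were, of which 5 were Gzmc, Gzmd, Gzme, Gzmg and Prf1 and the others Rps27rt, Spp1 and mt-Nd6. Both limits were chosen, and these 3 genes picked out, after the values were seen.

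**Figure D5:**
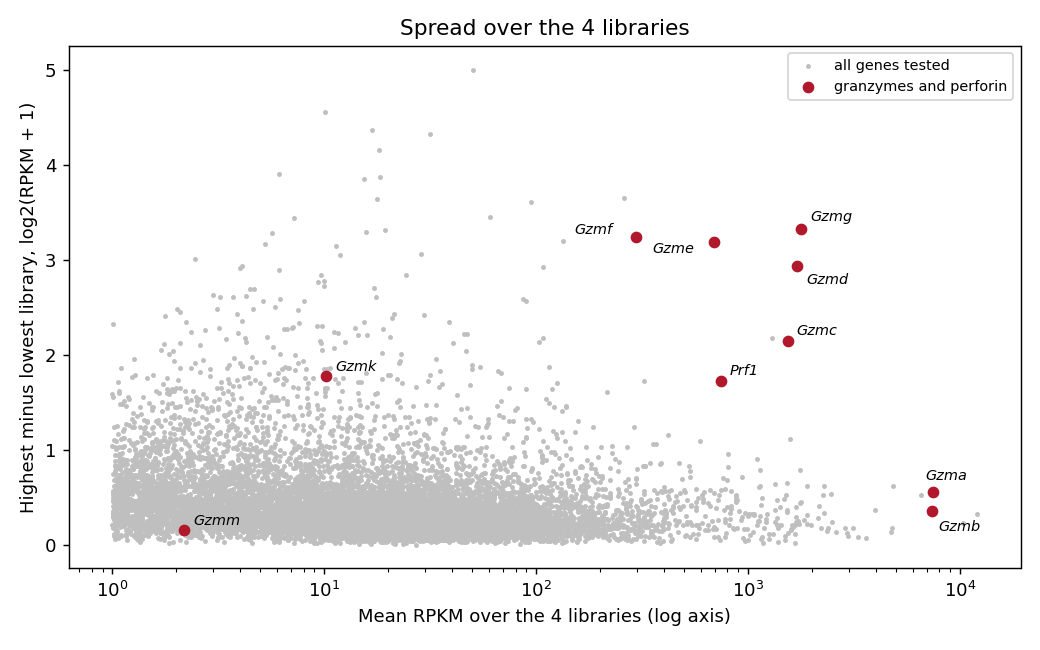
Highest minus lowest library on the log2(RPKM + 1) scale against the mean RPKM of the 4 libraries on a log axis, for all 11625 tested genes (grey) and the 10 granzyme and perforin genes (red). Gzmd, Gzme, Gzmf and Gzmg lie at ranges of 2.94 to 3.33, above nearly all genes of similar level, while Gzma, Gzmb and Gzmm lie at 0.56 or less.

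The direction of that spread was shared. OX40-knockout 1 was the lowest library for 8 of the 10, all but Gzma and Gzmb, as it was for 42.6% of all tested genes. OX40-knockout 2 was the highest for 9 of the 10, all but Gzmm, as it was for 19.4%. The full order, OX40-knockout 1, wild-type 1, wild-type 2 and OX40-knockout 2 from low to high, held for 6 of the 10 and for 9.20% of all tested genes. Replicate 2 exceeded replicate 1 in both groups for 7 of the 10 and for 33.3% of all tested genes. The clustered genes are neighbours of like sequence, so these counts do not rest on 10 separate observations. GC content was between 44.4% and 55.0% in the 10 genes, and between 50.1% and 51.4% in Gzmc to Gzmg. In that middle range of GC (48.8% to 52.3%) the median deviation of OX40-knockout 1 over all tested genes was -0.03. It was -0.18 in the GC class of Gzma, -0.11 in that of Gzmb and Gzmk, and 0.08 in that of Prf1 and Gzmm. The part of GC content in the library order was not tested.

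Markers of NK cells and of mast cells and basophils varied along with these genes. 9 of 10 NK markers reached 1 RPKM, and the summed level of the list was 141 and 391 RPKM in OX40-knockout 1 and 2, against 253 and 406 RPKM in wild-type 1 and 2. Klrb1c and Eomes made up most of this sum in every library. Klrb1c stood at 42.8 and 159 RPKM in the knockout libraries and at 98.5 and 159.7 RPKM in wild type. Eomes, also on the list of regulators, stood at 75.5 and 133 RPKM in the knockout libraries and at 114 and 149.6 RPKM in wild type. Ncr1, a receptor found on NK cells, stood at 0.183 and 7.49 RPKM in the knockout libraries and at 0.408 RPKM and 7.93 RPKM in wild type. 8 of 10 mast cell and basophil markers reached 1 RPKM, with sums of 28.3 and 167 RPKM in the knockout libraries and 64.2 and 183 RPKM in the wild-type libraries. Cpa3, the mast cell carboxypeptidase, stood at 2.79 and 35.1 RPKM in the knockout libraries and at 3.09 RPKM and 36.7 RPKM in wild type, and Tpsab1 at 0 in all 4. Both sums were higher in the libraries numbered 2 than in those numbered 1, but not every marker was. Itga2 was highest in OX40-knockout 1, at 2.82 RPKM, with 2.34 RPKM in OX40-knockout 2, against 2.43 and 2.44 RPKM in wild-type 1 and 2. Kit, the stem cell factor receptor of mast cells, was low in OX40-knockout 1 alone, at 20.4 and 49.6 RPKM in OX40-knockout 1 and 2, against 51.8 and 50.9 RPKM in wild-type 1 and 2. In the libraries numbered 1, Kit made up most of the mast cell and basophil sum. Ncam1 stayed under 1 RPKM in all libraries and was highest in wild-type 1, at 0.258 RPKM. Prf1 and the clustered granzymes were higher in OX40-knockout 2 than in wild-type 2, and the sums of these 2 marker lists were not. Most single markers were not either, but some were. These included Fcgr3 (37.8 RPKM in OX40-knockout 2 against 27.7 RPKM in wild-type 2), Klri2 (4.78 against 4.04 RPKM) and Tpsb2 (6.23 against 5.31 RPKM). Fcgr3 had the library order of Prf1. T cell markers summed to 3584 and 3300.2 RPKM in the knockout libraries and to 3622 and 3268 RPKM in the wild-type libraries. Markers of CD4 T cells summed to 62.2 and 33.5 RPKM in the knockout libraries and to 32.4 and 35.1 RPKM in the wild-type libraries, with Cd4 itself at 10.1 RPKM in OX40-knockout 1 and 2.06 RPKM in OX40-knockout 2, against 0.820 and 1.97 RPKM in wild-type 1 and 2. Most of the CD4 sum was Zbtb7b, at 28.7 to 47.3 RPKM. CD8 T cell markers summed to 406 and 338 RPKM in the knockout libraries and to 319 and 337 RPKM in the wild-type libraries. Most of this was Runx3, also on the list of regulators, at 385 and 327 RPKM in knockout and 305 and 324 RPKM in wild type. Cd8a stood at 16.6 and 9.03 RPKM in the knockout libraries and at 10.5 and 10.4 RPKM in wild type. Cd8b1 reached at most 4.44 RPKM. Markers of B cells summed to at most 4.85 RPKM in any library, with Ms4a1 and Pax5 at 0, those of myeloid cells to at most 26.4 RPKM and those of erythroid cells and platelets to at most 14.0 RPKM. The 2 markers of γδ T cells in the table summed to at most 2.29 RPKM. The part of these cells in the granzyme and perforin values was not tested.

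Genes beside the cluster on chromosome 14 are given next, and the part of gene position in their values was not tested. From low to high coordinate the annotation places Mcpt8, Ctsg, Gzme, Gzmd, Gzmg, Gzmn, Gzmf, Gzmc and Gzmb next to one another among protein-coding genes, all on the minus strand, with further chymase genes beyond Mcpt8. Gzmn, a further granzyme gene that was picked out after its values were seen, stood at 0.708 and 10.1 RPKM in OX40-knockout 1 and 2, against 2.40 and 5.38 RPKM in wild-type 1 and 2, in the same order of libraries as Gzmd. Ctsg, which encodes cathepsin G, known from neutrophil granules, stood at 2.02 and 36.7 RPKM in the knockout libraries and at 4.77 RPKM and 27.8 RPKM in wild type. Mcpt8, a basophil protease, stood at 1.42 and 31.9 RPKM in the knockout libraries and at 5.34 RPKM and 34.3 RPKM in wild type. Cma1, the mast cell chymase, stood at 1.13 and 31.9 RPKM in the knockout libraries and at 2.25 RPKM and 37.1 RPKM in wild type. Mcpt8 and Cma1 were highest in wild-type 2, unlike the clustered granzymes, and both are also on the mast cell and basophil list. Of 12 further granzyme and chymase family genes 4 were tested, Gzmn, Ctsg, Mcpt8 and Cma1, and 0 passed. The other 8 stayed under 1 RPKM. Gzmb, at the opposite end and next to Gzmc, had a different order of libraries.

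Genes with the most similar pattern over the 4 libraries were sought among 8579 genes averaging 5 RPKM or more, with the 10 genes themselves set aside. The measure was the root mean square difference of log2(RPKM + 1) after each gene's mean was removed. By the same measure Gzmf and Gzmg lay 0.07 from each other and Gzmd and Gzme 0.09, nearer than any gene found for them in the search, and Gzmc and Prf1 lay 0.20 apart. In the search, nearest to Gzmg and Gzmf were Cd55, a complement regulator, and Tyrobp, a signalling adaptor of NK and myeloid receptors, at differences of 0.08 to 0.12, followed by Klrb1a at 0.25 from Gzmg and 0.21 from Gzmf. Tyrobp stood at 27.3 and 259.9 RPKM in OX40-knockout 1 and 2, against 60.3 and 189 RPKM in wild-type 1 and 2. Klrb1a, an NKR-P1 receptor, and Sh2d1b2, an adaptor of SLAM family receptors, came nearest to Gzmd in the search, both at 0.12, followed by Dsc2 at 0.20. For Gzme they were Klrb1a at 0.17, Sh2d1b2 at 0.21 and Cd55 at 0.24. Nearest to Gzmc was Serpinb9b, an intracellular serpin, at 0.06, which stood at 7.90 and 35.1 RPKM in the knockout libraries and 11.3 and 20.7 RPKM in the wild-type libraries, followed by Scin, an actin-severing protein, at 0.07 and Scimp at 0.15. Nearest to Prf1 was Tmem171 at 0.03, followed by Khdc1a and Fcer1g, a signalling chain of Fc and NK receptors, at 0.08. For Gzmk, in which only OX40-knockout 1 was low, the nearest were Odaph, Slc27a6 and Dixdc1, at 0.12 to 0.14. The likeness describes these 4 libraries.

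Genes that process, hold and release granule contents are taken next. Of 11 tested genes of granule processing and contents 0 passed, 4 were higher and 7 lower in the knockout, with a median log2 change of -0.13. For this list and those that follow, 56.6% of all tested genes were lower and their median was -0.03. The libraries were at least 2-fold apart for 1 of the 11, beside 6.85% of all tested genes. Calr, the calcium-binding chaperone that binds perforin, stood at 806 and 1035 RPKM in OX40-knockout 1 and 2, against 860.0 and 939 RPKM in wild-type 1 and 2. Srgn, the core of the proteoglycan that binds granzymes, stood at 1075 and 808 RPKM in the knockout libraries, against 841 and 769 RPKM in the wild-type libraries. Srgn was thus highest in the library in which Prf1 and the clustered granzymes were lowest. By contrast, 3 of the 11, namely Calr, Ctsc and Lamp2, had the library order of Prf1, beside 9.20% of all tested genes. Those of lowest p were Ctsl, a lysosomal protease (log2 change 0.35, SE 0.19), Fasl, the death ligand (-0.62, SE 0.44), and Lamp1, a granule membrane protein (-0.13, SE 0.10), each with a limma adjusted p of 0.975. Fasl stood at 10.6 and 24.8 RPKM in the knockout libraries and at 20.3 RPKM and 32.2 RPKM in wild type.

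Of 15 tested genes of granule transport and release 0 passed, 8 were higher and 7 lower, and the median was 0.03. The libraries were at least 2-fold apart for 1 of the 15, a share near the 6.85% of all tested genes. The library order of Prf1 held for 0 of the 15, beside 9.20% of all tested genes. Stxbp2, a syntaxin-binding protein needed for granule fusion, stood at 223 and 192 RPKM in OX40-knockout 1 and 2, against 188 and 191 RPKM in wild-type 1 and 2. Rab27a, the small GTPase that docks granules, stood at 76.0 and 105 RPKM in the knockout libraries and at 96.4 RPKM and 108 RPKM in wild type. Stx7 had the lowest p (log2 change 0.19, SE 0.11, limma adjusted p = 0.975), and Kif5b, a microtubule motor, stood at 92.7 and 101 RPKM in the knockout libraries and at 104 RPKM and 97.3 RPKM in wild type.

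Among serpins listed as inhibitors of granzymes, 6 of 12 genes were tested and 0 passed, with 2 higher, 4 lower and a median of -0.05. Serpinb9, the inhibitor of granzyme B, stood at 70.6 and 156 RPKM in OX40-knockout 1 and 2, against 123 and 154 RPKM in wild-type 1 and 2. Serpina3g stood at 195 and 184 RPKM in the knockout libraries and at 164 RPKM and 197 RPKM in wild type. Serpinb1a had the lowest p (log2 change -0.16, SE 0.14, limma adjusted p = 0.975). 3 of the 6, including Serpinb9 and Serpinb9b, followed the library order of Prf1, as did 9.20% of all tested genes. The highest and lowest libraries were at least 2-fold apart for 2 of the 6, beside 6.85% of all tested genes.

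Of 25 tested regulators of granzyme and perforin transcription 0 passed, 17 were higher and 8 lower, and the median was 0.08. Over all tested genes 56.6% were lower, with a median of -0.03. Those of lowest p were Junb, an AP-1 subunit (log2 change 0.54, SE 0.23), Bach2, a repressor of effector genes (-0.34, SE 0.19), and Zfp683, which encodes Hobit (0.80, SE 0.47), each with a limma adjusted p of 0.975. Junb stood at 345 and 220.1 RPKM in OX40-knockout 1 and 2, against 194 and 184 RPKM in wild-type 1 and 2. Zfp683 stood at 34.4 and 12.3 RPKM in the knockout libraries and at 10.7 RPKM and 12.2 RPKM in wild type, so that OX40-knockout 1 alone was high. Id2 stood at 378 and 523 RPKM in the knockout libraries and 439.6 and 509 RPKM in wild type, and Bhlhe40 at 375 and 461 RPKM in knockout and 399 and 398 RPKM in wild type. The library order of Prf1 was found in 2 of the 25, a share near the 9.20% of all tested genes. A 2-fold distance between the highest and lowest library was also found in 2 of the 25, beside 6.85% of all tested genes.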

How the data were processed

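The authors deposited 1 table of RPKM values covering all libraries. The unit is not in the header and was settled from the values. In single-transcript genes of 1 read, value times annotated length gave the same library total repeatedly, and with these totals 82.6% to 83.2% of single-transcript values were whole reads within 0.02 read. All 10 genes came out as whole reads in all 4 libraries within 0.001 read, at the fitting length nearest the annotated mean. More than 1 length fitted for some genes, so their reads, and the exact 95% Poisson intervals, could be off by a common factor. Bowtie 0.12.2 and build mm8 are listed, per the submitters' processing notes. Annotation, counting tool and strand use: not given in the sources used here. Antisense reads therefore cannot be told apart. Symbols, lengths and GC content came from GENCODE vM21 (GRCm38), which named 34490 of the 35275 IDs. Promoters came from RefSeq (GRCm38.p6) and were matched by symbol. They carry no values of these libraries.

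Values were tested with limma 3.58.1 in R 4.3.3 (empirical Bayes with a mean-variance trend) on log2(RPKM + 1) in genes averaging 1 RPKM or more, with all 4 libraries and no block. This scale understates changes of low genes. The script was tested on simulated data. Alternatives were a pseudocount of 0.1, no filter, median-of-ratios scaling, quantile normalization, a GC correction over 20 classes, the replicate number as a block, and leaving out each library. Genes, lists and tests were chosen with earlier results of these data known. Named beyond the 10 genes were, in each list, the 3 genes of lowest p and the 2 of highest mean, and for each gene that varied 2-fold the 3 most similar genes, with clone names, pseudogenes and the 10 genes left out. Markers, neighbouring genes and highly expressed genes named outside this rule were chosen after their values were seen. Coding sequences were aligned with Biopython 1.88, and no protein sequences were used here. The γδ T cell receptor constant genes Trdc, Trgc1, Trgc2 and Trgc4 were on the marker list but were not found by symbol. Python 3.11.15 and matplotlib 3.10.9 were used.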

Additional observations from a re-analysis of the deposited data

How the results depend on the processing

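No gene of the 10 passed the adjusted threshold under any of the 11 alternatives run. Over all genes 1 passed with quantile normalization, 5 with the replicate block, 1 with the replicate block and GC correction together, and 0 to 1 when a library was left out. The signs of all 10 log2 changes were kept under the other pseudocount, no filter, median-of-ratios scaling, the GC correction and both block fits. Quantile normalization turned Gzma to -0.11 and Gzmb to -0.09. Leaving out 1 library at a time gave -0.09 to 0.47 for Gzma, 0.13 to 0.29 for Gzmb, -1.01 to 1.15 for Gzmc, -2.02 to 0.92 for Gzmd, -2.20 to 0.99 for Gzme, -2.04 to 1.19 for Gzmf, -2.0 to 1.33 for Gzmg, -1.50 to 0.28 for Gzmk, -0.13 to 0.03 for Gzmm and -0.98 to 0.75 for Prf1. Library numbers are shared between groups but the labels do not say that they pair libraries. Deviations of same-numbered libraries correlated at 0.469 over tested genes, and the replicate block lowered the SE of Gzmg to 0.40 without a call. Leaving out 1 library at a time turned the sign of every log2 ratio to Gzmb. It did not for Gzmk to Gzma, which ran from -1.42 to -0.19. Ratios within the cluster and to Prf1 were not checked in this way. The ratio to Gzmb ran from -0.23 to 0.19 for Gzma, -1.12 to 0.48 for Prf1, -1.15 to 0.87 for Gzmc, -2.16 to 0.64 for Gzmd, -2.34 to 0.72 for Gzme, -2.18 to 0.92 for Gzmf and -2.15 to 1.05 for Gzmg. The number of genes at least 2-fold apart was 6 or 7 without each library (chosen after seeing the data). With 2 libraries a group, precision rests on the spread between few libraries. The part of counting error in that spread was not separated out. Reads were fewest in Gzmm (47 to 58 a library) and Gzmk (82 to 346).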
